A study of Rattus norvegicus with 6 samples.

Results

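The glycolysis, pentose phosphate and lactate genes were described in RNA-seq data of rat neonatal cardiomyocytes, as 31 genes for the enzymes from glucose 6-phosphate to lactate, the lactate carriers, the entry of pyruvate into mitochondria and the pentose phosphate branch. Members were found by an exact match of the gene name in the count table, which lists 43035 features. Of the 31 members, 30 had an entry and 22 had enough counts to enter a test that covered 15513 features. Pgd, phosphogluconate dehydrogenase, matched no entry and was not analysed here.

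The cells were isolated from hearts of Sprague-Dawley rats at postnatal day 1, grown as a primary culture in serum-containing medium and transfected with an siRNA against DYRK1A (si-DYRK1A, n = 3 libraries) or with a scrambled siRNA (si-NC, n = 3 libraries). RNA was collected 48 h after transfection in both groups, and both groups went through the same lipid transfection. The labels call the libraries of a group biological replicates, without saying whether they came from separate isolations, and how many hearts were pooled is not given in the sources used here. DYRK1A is a protein kinase, and siRNAs direct the cleavage of mRNAs that they pair with. The comparison asks how the RNA of these metabolic genes differed between cells with DYRK1A siRNA and control cells.

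Glycolysis splits glucose into pyruvate, and lactate dehydrogenase interconverts pyruvate and lactate, which leaves or enters the cell through monocarboxylate carriers. Pyruvate can instead enter mitochondria and be oxidised by the pyruvate dehydrogenase complex, which pyruvate dehydrogenase kinases switch off. The pentose phosphate branch takes glucose 6-phosphate away to make NADPH and ribose. The heart of the fetus relies largely on glycolysis and lactate and turns to fatty acid oxidation after birth, and several enzymes exist as isozymes whose balance differs between tissues.

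Each library held 10325074 to 11921772 counts, so that 3 counts, the limit that a count of 0 allows, correspond to at most 0.291 CPM, the unit of counts scaled by library size. Unannotated transcripts took 17.2% to 17.5% of the counts. Correlations of log2 CPM between libraries were 0.9843 to 0.9883 within groups and 0.9786 to 0.9825 between them. The targeted gene does not set the groups apart, since no drop of its RNA was seen in these counts. The entry of Dyrk1a held at most 3 counts in any library. An unannotated transcript over the whole gene on its strand (chr11:34840290-34959417) was at 77.7 ± 3.22 CPM in si-NC and 82.4 ± 2.70 CPM in si-DYRK1A (SD, n = 3). Its log2 fold change was 0.08 (SE 0.0575, 95% interval -0.04 to 0.20, adjusted p = 0.374 by the edgeR quasi-likelihood test with Benjamini-Hochberg adjustment). The paper measured the knockdown in such cells as protein, by immunoblot. Of the cardiomyocyte markers, Actc1, Actn2 and Nppa had high counts, while the own entries of Tnni3, Myh6, Myh7 and Myl2 had 0 counts in all libraries.

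Markers of several cell types differed between the groups. Over all 15513 tested features, edgeR called 8.03% higher and 7.19% lower at an adjusted p below 0.05. The summed CPM of 15 cardiomyocyte markers was 22956 to 23911 in si-NC and 26266 to 27109 in si-DYRK1A, with 5 of 9 tested called higher (Nppa, Actn2, Tnni1, Actc1 and Pln). That of 10 fibroblast markers was 21531 to 26245 against 20368 to 21107, with Lum and Postn of 6 tested called higher and Pdgfra and Ddr2 at 0 counts. That of 7 endothelial markers was 169.7 to 188.5 against 137.8 to 143.7, with Tek, Tie1 and Cdh5 of 6 tested called lower. The smooth muscle markers summed to 2708 to 2913 against 2503 to 2636 CPM, with Des called lower and Acta2, Myh11 and Smtn at 0 counts. The macrophage markers summed to 271.4 to 284.2 against 267.8 to 308.4 CPM, with Lyz2 of 6 tested called higher and Cd68 at 0 counts. Of these 6 markers, 4 had a negative and 2 a positive log2 fold change, with a median of -0.16. At an unadjusted p below 0.05 by edgeR, 3 of them were lower and 1 higher. The erythroid markers summed to at most 7.036 CPM. A count of 0 is that of the gene's own entry, and reads over such a gene can lie in an unannotated transcript. With counts of such transcripts joined to their genes, 3 of 8 tested fibroblast markers and 5 of 10 tested cardiomyocyte markers were called higher. The part of these marker shifts in the values of the metabolic genes was not tested. In such bulk libraries, fewer cells of a type and less RNA per cell cannot be told apart.

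Per length, the highest own entries of the set were those of lactate dehydrogenase, enolase, aldolase and phosphoglycerate kinase. Mean FPKM (fragments per kilobase of gene length scaled by library, the only scale on which genes are compared here) over the 6 libraries was 1170 for Ldha, 859 for Eno1, 781 for Aldoa, 735 for Pgk1 and 660 for Ldhb. Pgam1 at 452 FPKM and Gpi at 419 FPKM followed, and then Tkt at 250, Pdhb at 188, Taldo1 at 184 and Pfkl at 73.4 FPKM. The Pfkfb genes, for regulators of the committed step, were far lower, with the own entries of all tested Pfkfb members between 1.42 and 3.53 FPKM. This order holds own entries only. It leaves out a copy of Gapdh (LOC108351137) at 434 FPKM and an unannotated transcript over Pkm at 98.8 FPKM. Together the members' own entries took 0.982% to 1.07% of all counts. Their summed CPM was 10242, 10585 and 10275 in the si-NC libraries and 9942, 10050 and 10139 in the si-DYRK1A libraries. Every si-DYRK1A library lay below every si-NC library in this sum, with a mean difference of -324 CPM (-506 CPM with scaling by library size only and -215 CPM without si-NC replicate 2). The sum counts Gapdh as 0 and leaves out most reads over Pkm and a Tpi1-like copy. The transcript over Gapdh and the copies of Gapdh together held 773, 571 and 765 CPM in si-NC and 739, 813 and 829 CPM in si-DYRK1A. Whether the groups stay apart with such reads added was not tested.

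**Figure D1:**
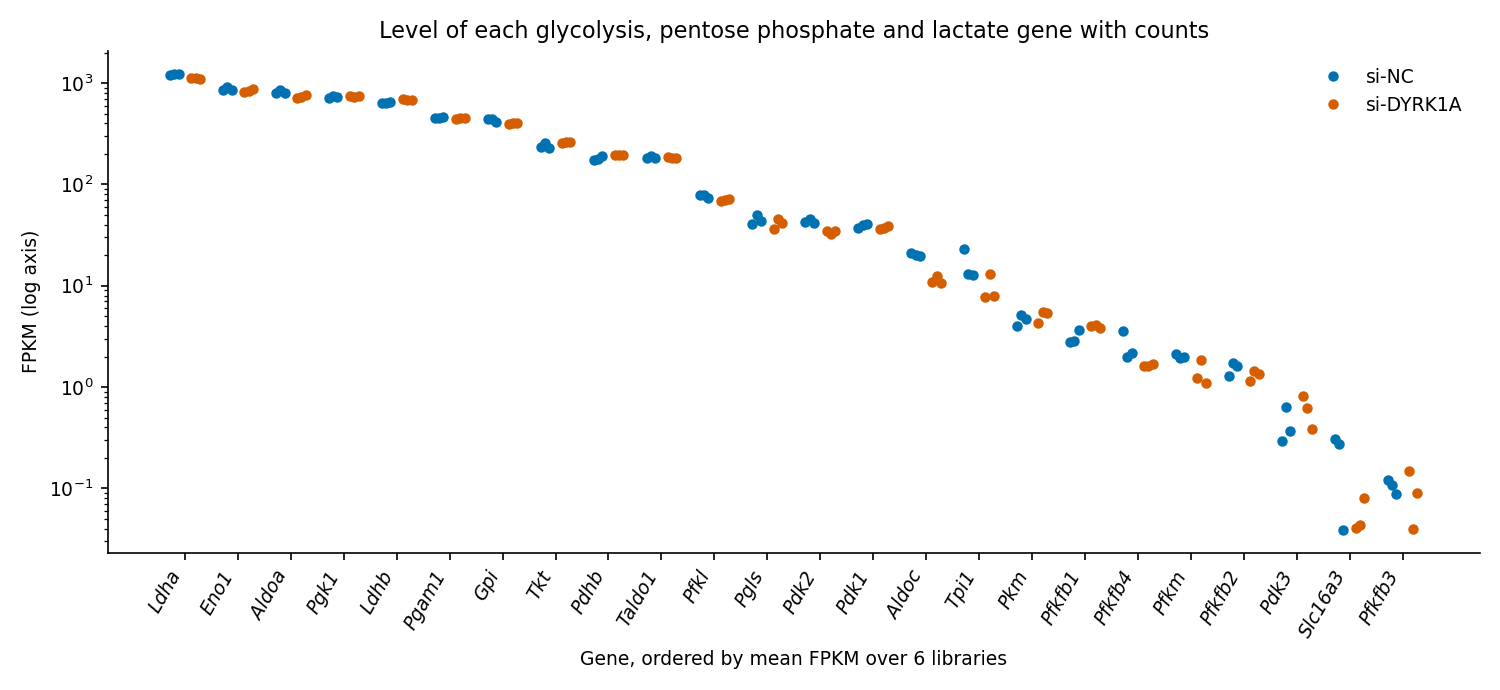
FPKM on a log axis of the 24 genes with counts, with 1 point per library, si-NC in blue and si-DYRK1A in orange, ordered by the mean over 6 libraries. Levels run from 1170 FPKM for Ldha to below 1 FPKM for Pdk3, Slc16a3 and Pfkfb3, and the groups stand visibly apart for Aldoc.

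Of the 22 tested members, 4 were called lower in si-DYRK1A and 0 higher by edgeR at an adjusted p below 0.05. At an unadjusted p below 0.05, 8 were lower and 4 higher, DESeq2 called 4 lower and 0 higher, and limma-voom 4 lower and 1 higher. Among all 15513 tested features, 7.19% were called lower and 8.03% higher. The called members were Aldoc, Pdk2, Aldoa and Ldha. The groups did not overlap for 11 of the 22 members, 8 of them lower and 3 higher in si-DYRK1A, against 31.5% of all features in either direction. The median log2 fold change of the tested members was -0.08, with 14 negative and 8 positive values, and that of all tested features was 0.00.

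**Figure D2:**
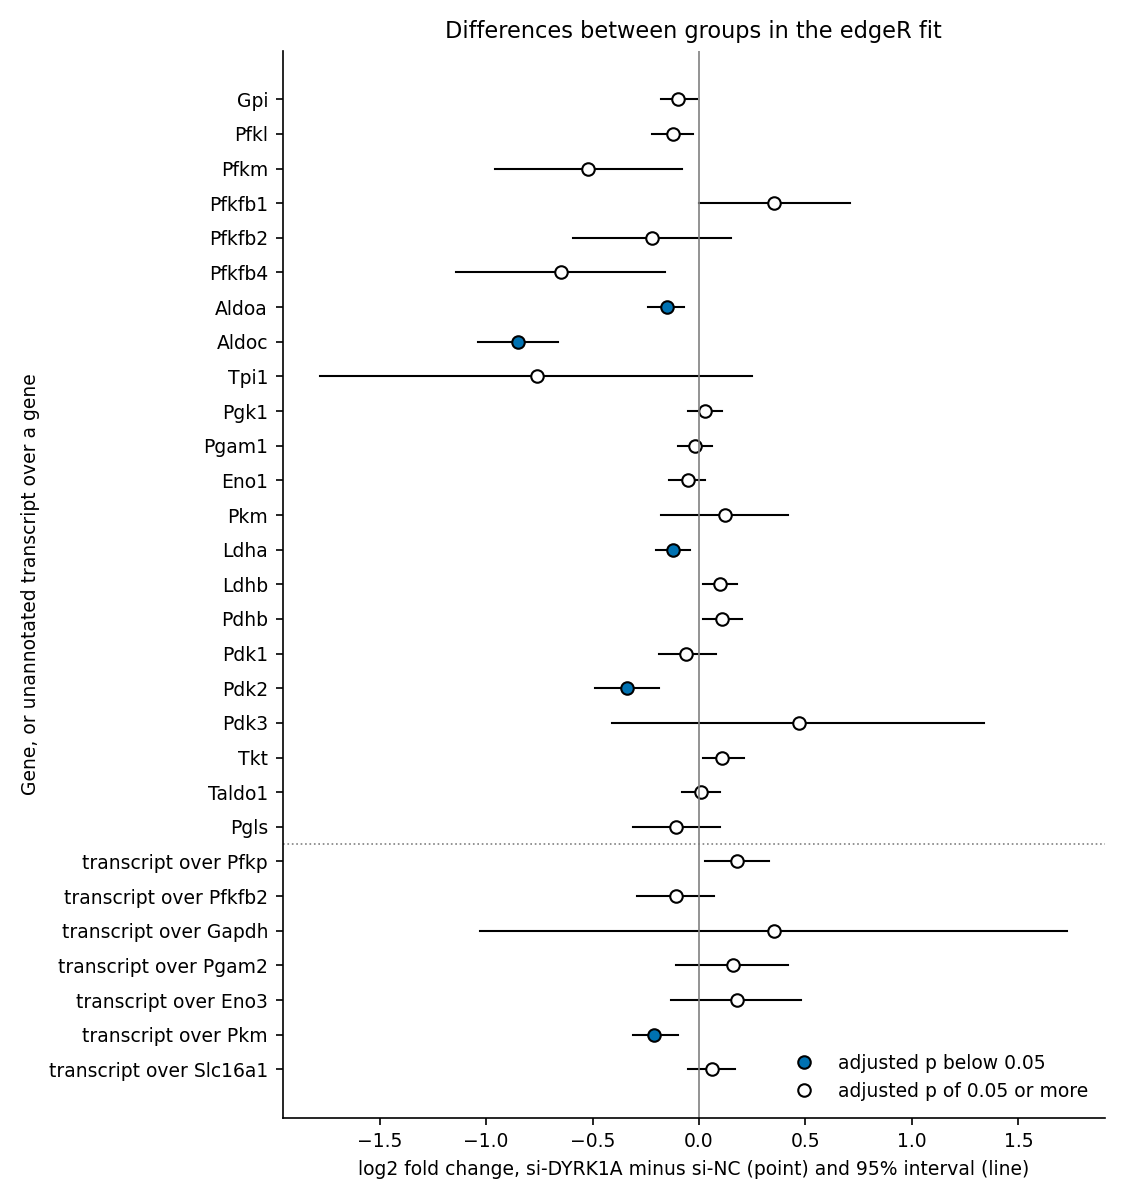
Log2 fold change of si-DYRK1A against si-NC (point) with its 95% interval (line) for the 22 tested members and, below the dotted line, for 7 unannotated transcripts over members, with filled points for an adjusted p below 0.05. Filled points mark Aldoa, Aldoc, Ldha and Pdk2 among the genes and the transcript over Pkm, all to the left of 0, and the widest lines belong to Tpi1, Pdk3 and the transcript over Gapdh.

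The aldolases, which split fructose bisphosphate into the 2 triose phosphates, gave the largest called difference. Aldoc (ENSRNOG00000011452, Rnor_6.0 chr10:65586504-65590126, plus strand), the aldolase isozyme best known from brain, was at 35.8, 34.2 and 33.5 CPM in si-NC and at 18.4, 21.0 and 18.1 CPM in si-DYRK1A. All si-DYRK1A libraries were well below all si-NC libraries. The log2 fold change was -0.85 with an SE of 0.0905 (adjusted p = 9.05e-07, edgeR with Benjamini-Hochberg adjustment). Aldoa (ENSRNOG00000052802, chr1:198228387-198233588, minus strand), the aldolase of muscle, was at 1309, 1397 and 1294 CPM in si-NC and at 1173, 1191 and 1237 CPM in si-DYRK1A. The groups again did not overlap, but the gap was narrow beside the level. Aldoa fell by 0.15 on the log2 scale with an SE of 0.0417 (adjusted p = 0.0152, edgeR), and leaving out si-DYRK1A replicate 1 or 2 ended the call, with edgeR adjusted p-values of 0.0728 and 0.079.

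Because Aldoa was so abundant, Aldoc made up a small part of the aldolase RNA. Its share of the summed FPKM of both genes was 2.54%, 2.29% and 2.42% in si-NC and 1.48%, 1.66% and 1.38% in si-DYRK1A. The difference was -0.911 percentage points without overlap between groups, with p = 0.1 by an exact two-sided permutation test, the smallest value that 3 libraries against 3 allow.

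The pyruvate dehydrogenase kinases phosphorylate and thereby inactivate the pyruvate dehydrogenase complex. Pdk2 (ENSRNOG00000004172, chr10:82839153-82852660, minus strand) was at 52.8, 55.6 and 51.1 CPM in si-NC and at 42.8, 40.4 and 42.8 CPM in si-DYRK1A. No library of one group reached the range of the other. Pdk2 fell by 0.34 on the log2 scale with an SE of 0.0704 (adjusted p = 0.00184, edgeR). Pdk1, the isozyme known as a hypoxia target, was at 59.0, 63.2 and 64.4 CPM in si-NC and at 58.6, 59.2 and 61.7 CPM in si-DYRK1A, with overlapping groups and a log2 fold change of -0.06 (95% interval -0.19 to 0.08, adjusted p = 0.631, edgeR). Pdk3 had 7 to 21 counts per library, and its log2 fold change of 0.47 had a 95% interval of -0.41 to 1.34. Among Pdk1, Pdk2 and Pdk3, nearly all FPKM was in Pdk1 and Pdk2. These shares leave out Pdk4, a further kinase that is not one of the 31 genes, at 8.17 ± 0.771 FPKM in si-NC and 6.82 ± 1.20 FPKM in si-DYRK1A (SD, n = 3 per group). The share of Pdk2 was 53.4%, 52.8% and 50.4% in si-NC and 48.0%, 46.4% and 47.0% in si-DYRK1A, and that of Pdk1 was 47.3% ± 1.64 and 52.0% ± 1.01 (SD, n = 3 per group). Both shares were without overlap (exact permutation p = 0.1). With so little Pdk3 the shares of Pdk1 and Pdk2 nearly mirror each other, so they are not separate results.

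The target of these kinases is the E1 component of the complex. Pdhb, its beta subunit, was at 355, 357 and 382 CPM in si-NC and at 393, 391 and 394 CPM in si-DYRK1A. The 3 si-DYRK1A libraries lay just above the highest si-NC library, and the log2 fold change of 0.11 (SE 0.0432, 95% interval 0.02 to 0.20) did not pass the threshold (adjusted p = 0.109, edgeR). Pdha1, the alpha subunit, had 0 counts in all libraries, and the unannotated transcript over it (chrX:37329682-37343412) held 0 to 3 counts per library, so the level of this subunit was not detectable in these counts.

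Lactate dehydrogenase is a tetramer of the subunits encoded by Ldha and Ldhb, the first typical of muscle and glycolytic cells and the second of heart. Ldha (ENSRNOG00000013009, chr1:102900286-102909707, plus strand) was at 1932, 1994 and 1968 CPM in si-NC and at 1818, 1821 and 1787 CPM in si-DYRK1A. Ldhb (ENSRNOG00000013000, chr4:176701983-176720012, minus strand) was at 860, 847 and 872 CPM in si-NC and at 940, 914 and 913 CPM in si-DYRK1A. The si-DYRK1A libraries were thus all below si-NC for Ldha and all above it for Ldhb. Ldha fell by 0.12 on the log2 scale with an SE of 0.0376 (adjusted p = 0.0341, edgeR). Leaving out any library other than si-NC replicate 3 ended that call, with adjusted p-values of 0.0526 to 0.168. The difference of Ldhb, 0.10 on the log2 scale with an SE of 0.0391, did not pass the threshold (95% interval 0.02 to 0.18, adjusted p = 0.0874, edgeR).

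The share of Ldhb in the lactate dehydrogenase FPKM joins both differences in a quantity that library scaling cannot move. It was 34.7%, 33.6% and 34.6% in si-NC and 38.2%, 37.5% and 37.9% in si-DYRK1A. The groups were separated by more than the spread within either, with means of 34.3% ± 0.583 and 37.8% ± 0.355 (SD, n = 3 per group) and a difference of 3.53 percentage points (exact permutation p = 0.1). The difference was 3.34 points on counts without division by length.

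**Figure D3:**
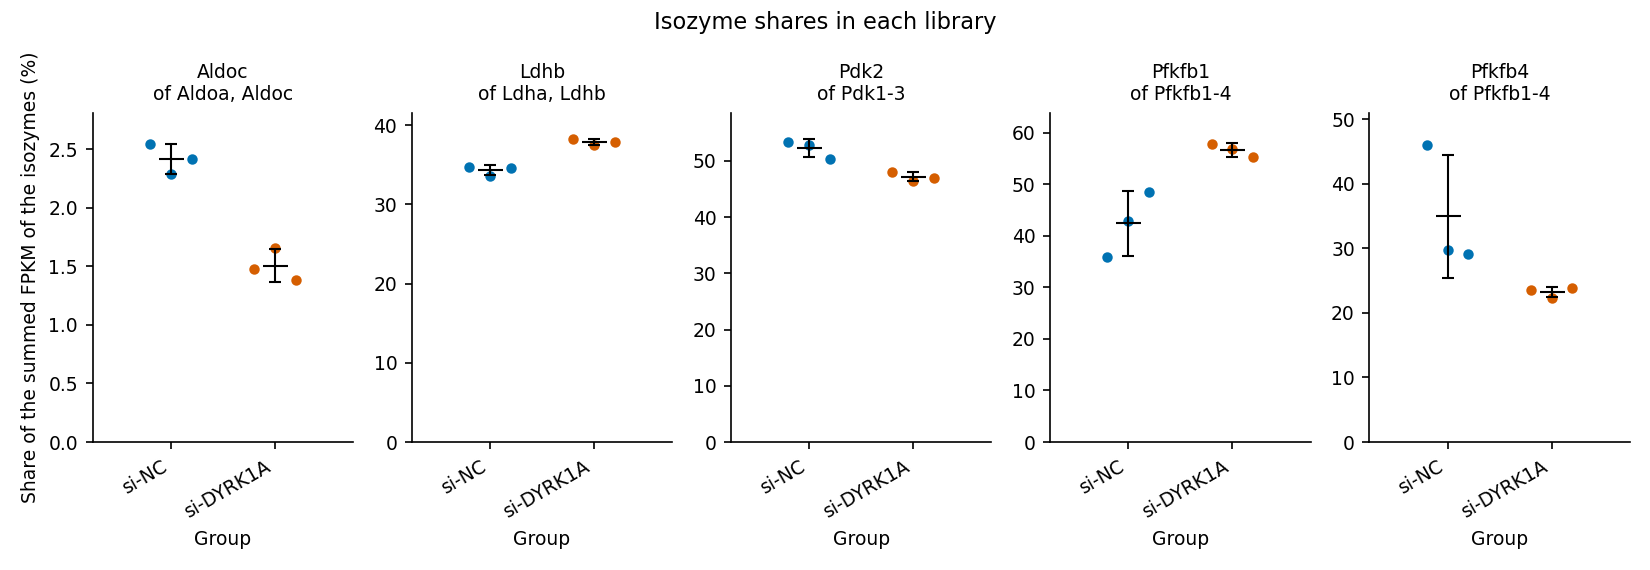
Share of the named isozyme in the summed FPKM of its enzyme (%), with 1 point per library and black bars for the mean and SD of 3 libraries, si-NC in blue and si-DYRK1A in orange. In si-DYRK1A the shares of Aldoc, Pdk2 and Pfkfb4 lay lower and those of Ldhb and Pfkfb1 higher, with no overlap in any panel, and every axis starts at 0. Shares of Pfkl, Pfkm, Pdk3, Pfkfb2 and Pfkfb3 on this basis overlapped and are not drawn. Only own entries are used, so the Pfkfb panels leave out most reads over Pfkfb2. Joined with covering transcripts, the share of Pfkfb1 was 19.6% in si-NC and 26.6% in si-DYRK1A.

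Many glycolytic genes carry short motifs near their start, the hypoxia response core ACGTG or GCGTG that hypoxia-inducible factors and the related E-box CACGTG that basic helix-loop-helix factors bind. The 250 bases before the start of transcription are shown for the called genes with a single listed start, and for Ldhb beside Ldha, as RefSeq gives them on GRCr8. Capitals mark ACGTG or GCGTG on either strand, so that the other strand reads CACGT or CACGC, and a CACGTG holds ACGTG on both strands.
Aldoc, chr10:63715294-63715543, plus strand: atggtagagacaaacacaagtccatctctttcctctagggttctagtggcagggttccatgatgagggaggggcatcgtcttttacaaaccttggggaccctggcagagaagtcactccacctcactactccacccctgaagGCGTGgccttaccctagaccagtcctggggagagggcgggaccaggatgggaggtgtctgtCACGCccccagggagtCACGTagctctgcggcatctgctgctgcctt
Pdk2, chr10:80483913-80484162, minus strand: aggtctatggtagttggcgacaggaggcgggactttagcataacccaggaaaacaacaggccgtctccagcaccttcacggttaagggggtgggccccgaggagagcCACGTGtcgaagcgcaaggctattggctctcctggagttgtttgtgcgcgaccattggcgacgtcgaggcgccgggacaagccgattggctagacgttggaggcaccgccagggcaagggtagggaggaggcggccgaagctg
Ldha, chr1:106507842-106508091, plus strand: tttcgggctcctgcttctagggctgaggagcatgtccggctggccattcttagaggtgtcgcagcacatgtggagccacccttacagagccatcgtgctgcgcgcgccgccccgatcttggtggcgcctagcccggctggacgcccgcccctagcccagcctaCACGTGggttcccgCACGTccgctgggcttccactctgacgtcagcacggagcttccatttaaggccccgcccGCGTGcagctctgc
Ldhb, chr4:177177409-177177658, minus strand: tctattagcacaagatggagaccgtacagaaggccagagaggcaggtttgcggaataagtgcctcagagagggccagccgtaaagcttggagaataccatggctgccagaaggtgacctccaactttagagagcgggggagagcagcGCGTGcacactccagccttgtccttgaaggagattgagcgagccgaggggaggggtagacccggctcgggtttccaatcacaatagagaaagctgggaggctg
The Ldha window holds 3 matches of ACGTG, of which 2 form a CACGTG, and 1 of GCGTG. The Aldoc window holds 1 of ACGTG and 2 of GCGTG, that of Pdk2 a CACGTG, and that of Ldhb 1 of GCGTG. Aldoa has 3 listed starts, of which 1 has a match of ACGTG. Of 33469 windows of this length, 16.6% hold ACGTG, 25.9% GCGTG, 5.59% CACGTG and 36.7% either core. Among the members, 29 had a listed promoter, with 32 listed starts together. Of these genes, 18 held either core at 1 start or more, a count per gene and not per window like the 36.7%. They were 4 of the 4 called genes, 9 of 16 tested genes that were not called, and 5 genes whose own entry was not tested (Pfkp, Pfkfb3, Gapdh, Slc16a1 and Pdha1). These are matches of letters only, and no binding was measured in these libraries.

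The first steps after glucose 6-phosphate are made by Gpi, glucose 6-phosphate isomerase, and by the phosphofructokinases. Gpi was at 899, 890 and 844 CPM in si-NC and at 808, 827 and 829 CPM in si-DYRK1A, and Pfkl, the liver-type phosphofructokinase, at 217, 217 and 203 CPM and at 190, 193 and 202 CPM. In both genes every si-DYRK1A library was below every si-NC library, and neither passed the threshold. The log2 fold changes were -0.10 for Gpi (95% interval -0.18 to -0.01, adjusted p = 0.125, edgeR) and -0.12 for Pfkl (95% interval -0.22 to -0.03, adjusted p = 0.0839, edgeR). Both passed it with scaling by library size only and without si-NC replicate 3. Pfkm, the muscle type, was low at 38 to 70 counts per library, and its log2 fold change of -0.52 (SE 0.210, adjusted p = 0.107, edgeR) was past the threshold only without si-DYRK1A replicate 2.

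Pfkp, the platelet type, had 0 counts in all libraries, but an unannotated transcript (chr17:68510128-68574453) covers the whole gene on its strand. That transcript was at 52.4, 55.4 and 60.5 CPM in si-NC and at 62.8, 67.8 and 60.3 CPM in si-DYRK1A, with overlapping groups and a log2 fold change of 0.18 (SE 0.0704, adjusted p = 0.095, edgeR). With counts of such transcripts joined to their genes, Pfkp made up 24.0% ± 2.01 of the phosphofructokinase level per length in si-NC and 28.1% ± 1.51 in si-DYRK1A (SD, n = 3 per group), without overlap (exact permutation p = 0.1). Pfkl made up most of the rest.

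The Pfkfb genes encode enzymes that make and break fructose 2,6-bisphosphate, a strong activator of phosphofructokinase. Pfkfb1 was at 5.56, 5.67 and 7.27 CPM in si-NC and at 7.92, 8.10 and 7.70 CPM in si-DYRK1A. Pfkfb4 was at 7.38, 4.06 and 4.52 CPM in si-NC and at 3.34, 3.30 and 3.46 CPM in si-DYRK1A. The groups did not overlap for either gene, yet neither passed the threshold, with log2 fold changes of 0.35 (SE 0.169, adjusted p = 0.178, edgeR) and -0.65 (SE 0.235, adjusted p = 0.0678, edgeR). The si-NC mean of Pfkfb4 was raised by replicate 1, and without that library the log2 fold change was -0.35 (adjusted p = 0.396, edgeR). Without si-NC replicate 2 or without the filter on low counts its adjusted p was 0.0298 and 0.0459. In the summed FPKM of the Pfkfb genes, Pfkfb1 had 42.5% ± 6.33 in si-NC and 56.6% ± 1.29 in si-DYRK1A, and Pfkfb4 had 34.9% ± 9.61 and 23.3% ± 0.838 (SD, n = 3 per group, exact permutation p = 0.1 for both).

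These shares leave out most reads over Pfkfb2, the isozyme of heart, because 85.2% of the counts at its locus were in an unannotated transcript (chr13:47415864-47440682). Joined with it, Pfkfb2 held the largest share, 63.6% ± 3.90 in si-NC and 61.8% ± 2.25 in si-DYRK1A (SD, n = 3 per group). The shares of Pfkfb1 were then 19.6% ± 3.32 and 26.6% ± 1.07, and those of Pfkfb4 16.1% ± 4.84 and 11% ± 0.999, still without overlap. The log2 fold change of joined Pfkfb2 was -0.13 with a 95% interval of -0.30 to 0.04. Pfkfb3 had 2 to 8 counts per library and was not tested. The transcript over it held 2 or 3 counts per library and also covers a further annotated gene, so it was not joined.

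From the triose phosphates to pyruvate, the abundant enzymes showed small differences. Pgk1, phosphoglycerate kinase, Pgam1, phosphoglycerate mutase, and Eno1, enolase, had overlapping groups and log2 fold changes of 0.03, -0.02 and -0.05. Their 95% intervals ran from -0.05 to 0.11 for Pgk1, from -0.10 to 0.06 for Pgam1 and from -0.14 to 0.03 for Eno1, so that differences beyond 0.14 on the log2 scale lie outside all of them. The muscle isozymes Pgam2 and Eno3 had 0 counts. Transcripts over Pgam2 and Eno3 were at 11.4 ± 0.911 and 9.01 ± 1.04 CPM in si-NC and at 12.7 ± 0.604 and 10.2 ± 0.562 CPM in si-DYRK1A (SD, n = 3 per group), with overlap for both. Per length, joined Pgam2 was 2.77% ± 0.245 of phosphoglycerate mutase and joined Eno3 0.711% ± 0.0835 of these enolases in si-NC (SD, n = 3).

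For Pkm, pyruvate kinase, the annotated entry held only 91 to 134 counts per library, and 95.5% of the counts at the locus were in an unannotated transcript of the same strand (chr8:64481172-64502959). The entry was at 8.73, 11.1 and 10.2 CPM in si-NC and at 9.32, 11.8 and 11.6 CPM in si-DYRK1A, with overlap and a log2 fold change of 0.12 (SE 0.145, adjusted p = 0.652, edgeR). The covering transcript was at 231, 222 and 254 CPM in si-NC and at 199, 211 and 204 CPM in si-DYRK1A. All si-DYRK1A libraries were below all si-NC libraries there, and the transcript fell by 0.21 on the log2 scale with an SE of 0.0511 (adjusted p = 0.00769, edgeR). The 3 limma fits on FPKM did not call it (highest adjusted p = 0.15). Joined, the Pkm locus was at 246 ± 15.6 CPM in si-NC and 215 ± 7.80 CPM in si-DYRK1A (SD, n = 3 per group), with a log2 fold change of -0.19 and an adjusted p of 0.00919 by edgeR. The annotated entry alone showed no direction beyond its error (95% interval -0.18 to 0.42), while the transcript with most of the counts and the joined locus were lower.

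Joining such transcripts to all genes they cover raised the tested members to 27, of which 5 were called lower (the 4 named before and Pkm) and 0 higher, with 9 lower and 4 higher at an unadjusted p below 0.05 (edgeR). In that fit 7.64% of 15074 features were called lower and 8.01% higher. Slc16a1, the lactate carrier MCT1, had 0 counts of its own and was at 98.3, 110 and 105 CPM joined in si-NC and at 112, 108 and 105 CPM in si-DYRK1A, with a log2 fold change of 0.05 (95% interval -0.06 to 0.16). Slc16a3, the carrier MCT4 of cells that export lactate, had 1 to 7 counts per library and 3 to 11 joined, and was not tested.

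Tpi1 and Gapdh could not be read from their own entries, since near-identical copies elsewhere in the genome also held counts and reads of such copies cannot be told apart with certainty. Tpi1, triose-phosphate isomerase, had 222 to 348 counts per library in si-NC and 127 to 202 in si-DYRK1A, and its log2 fold change of -0.76 (SE 0.374, adjusted p = 0.294, edgeR) was within the spread of the libraries. LOC100911515, annotated as triosephosphate isomerase-like, held more reads, with 96.6, 72.2 and 87.4 CPM in si-NC and 173, 130 and 168 CPM in si-DYRK1A. Its log2 fold change was 0.88 (SE 0.172, adjusted p = 0.0397, edgeR), opposite in sign to that of Tpi1. Leaving out any library other than si-DYRK1A replicate 2 ended this call, with adjusted p-values of 0.0513 to 0.131. The sum of both entries was at 130, 91.2 and 106 CPM in si-NC and at 184, 149 and 179 CPM in si-DYRK1A. The sum did not overlap between groups and its log2 fold change of 0.65 (SE 0.169, 95% interval 0.19 to 1.11) did not pass the threshold (adjusted p = 0.0862, edgeR). The tool that assigned reads between such copies is not given in the sources used here, so these values are uncertain.

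Gapdh, glyceraldehyde-3-phosphate dehydrogenase and a common reference gene, had 0 counts in all libraries. The transcript over it (chr4:157676391-157681175) had 1180, 485 and 1702 counts in si-NC and 1179, 1458 and 1580 in si-DYRK1A, and si-NC replicate 2 stood far below the others. LOC108351137, annotated as the same enzyme, was at 595, 445 and 560 CPM in si-NC and at 567, 605 and 623 CPM in si-DYRK1A. The sum of the Gapdh transcript and 7 copies was at 703 ± 115 CPM in si-NC and 793 ± 48.1 CPM in si-DYRK1A (SD, n = 3 per group), with overlap and a log2 fold change of 0.17 (95% interval -0.22 to 0.57, adjusted p = 0.534, edgeR). Joining a copy annotated as similar to alpha-enolase to Eno1 gave -0.06, and joining a copy of pyruvate kinase to the Pkm locus gave -0.20.

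**Figure D4:**
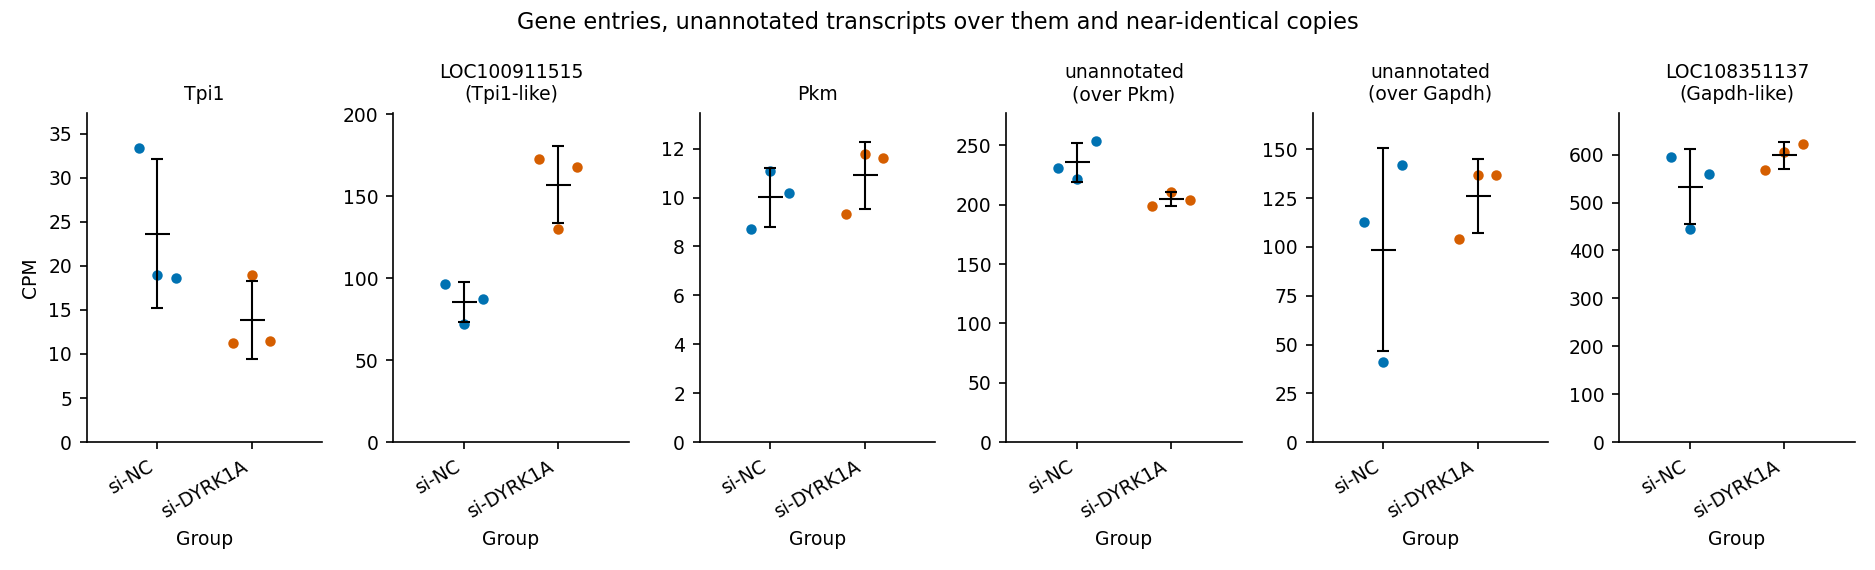
CPM of the entries of Tpi1 and Pkm, the transcripts over Pkm and Gapdh, and copies of Tpi1 and Gapdh, with 1 point per library and black bars for the mean and SD of 3 libraries, si-NC in blue and si-DYRK1A in orange. The groups do not overlap for the Tpi1-like copy (higher in si-DYRK1A) and the transcript over Pkm (lower), and 1 si-NC library of the Gapdh transcript lies at 41.0 CPM.

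In the pentose phosphate branch, Tkt, transketolase, and Taldo1, transaldolase, link the branch back to glycolysis, and Pgls makes phosphogluconate. Tkt was at 492, 539 and 476 CPM in si-NC and at 532, 547 and 551 CPM in si-DYRK1A, overlapping through si-NC replicate 2. Its log2 fold change was 0.11 (95% interval 0.02 to 0.21, adjusted p = 0.109, edgeR), and it was 0.17 without si-NC replicate 2 (adjusted p = 0.0103, edgeR) and 0.07 without si-NC replicate 3 (adjusted p = 0.387, edgeR). Taldo1 was at 229 ± 4.40 and 231 ± 2.28 CPM and Pgls at 107 ± 10.5 and 99.2 ± 10.7 CPM (SD, n = 3 per group), with log2 fold changes of 0.01 (95% interval -0.08 to 0.10) and -0.11 (95% interval -0.31 to 0.10).

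Around the members, 121 further genes of connected steps were counted, of which 119 had an entry and 76 were tested, and 18 were called lower and 7 higher. The shares over all 15513 tested features, to set beside this count and those of each list below, were 7.19% lower and 8.03% higher. Of the genes for glucose entry, 5 were tested. Slc2a1, the transporter GLUT1, was at 335, 348 and 317 CPM in si-NC and at 435, 428 and 430 CPM in si-DYRK1A and rose by 0.37 (SE 0.0441, adjusted p = 4.31e-06, edgeR). Txnip, which holds back glucose uptake, was at 508, 518 and 505 CPM and at 305, 328 and 299 CPM and fell by 0.72 (SE 0.0442, adjusted p = 5.24e-10, edgeR). The groups did not overlap for either gene. Hk2, a hexokinase, was at -0.10 with an adjusted p of 0.165 (edgeR), and Hk1 had 0 counts of its own. Joined with the transcript over it, Hk1 was at 0.05 (adjusted p = 0.576, edgeR).

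Of the other pentose phosphate genes, 3 of 8 tested were called lower. They were Pgm2, a phosphopentomutase (-0.42), Rpia, ribose 5-phosphate isomerase (-0.29), and H6pd, the hexose 6-phosphate dehydrogenase of the endoplasmic reticulum (-0.24). Of 11 tested genes for the fate of pyruvate, 0 were called by edgeR, DESeq2 or limma-voom and 0 had an unadjusted p below 0.05, while Gpt2, an alanine transaminase, was called lower once joined with the transcript over it (-0.36, adjusted p = 0.00581, edgeR). Bsg, the chaperone of the lactate carriers and the highest of them at 432 FPKM, was at 0.04.

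Of 14 tested glycogen and gluconeogenesis genes, 4 were called lower. These were the glycogen phosphorylases of liver and muscle, Pygl (-0.47) and Pygm (-0.26), the glycogen-targeting phosphatase subunit Ppp1r3b (-0.26) and the glucose 6-phosphatase G6pc3 (-0.19), while Pgm1, phosphoglucomutase and the highest of the list at 139 FPKM, was at 0.05 with an adjusted p of 0.531 (edgeR). Of 16 tested genes at branch points of glycolysis, 8 were called lower and 2 higher. The lower ones with the smallest p were Gfpt2 and Gfpt1 of the hexosamine branch (-0.52 and -0.22), Phgdh, the first enzyme of serine synthesis (-0.27), Gpd1l (-0.29) and Sord, sorbitol dehydrogenase (-0.29). Akr1b1, aldose reductase and the highest of the list at 266 FPKM, and Khk, ketohexokinase, were called higher (0.13 and 0.40), which DESeq2 did not call.

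Of 13 tested genes known to respond to hypoxia and not part of glycolysis, 3 were called higher and 1 lower. Egln3, a prolyl hydroxylase of hypoxia-inducible factor, was at 131, 134 and 121 CPM in si-NC and at 204, 201 and 201 CPM in si-DYRK1A (log2 fold change 0.65, SE 0.0491, adjusted p = 7.48e-09, edgeR). Car9, a carbonic anhydrase (0.52), and Ddit4, an inhibitor of mTORC1 (0.26), were called higher as well, Bnip3l, a mitophagy receptor, was called lower (-0.15), and Fam162a, the highest at 106 FPKM, was at 0.07. Of 9 tested regulators, Ppargc1a, a coactivator of mitochondrial genes, was called higher (0.45) and Vhl, which marks hypoxia-inducible factor for degradation, lower (-0.17), and Esrra, a nuclear receptor and the highest at 75.6 FPKM, was at 0.05. Slc2a1, Txnip, Pgm2, Pygl, Pygm, Gfpt2, Phgdh, Gpd1l, Sord and Egln3 passed the threshold under all 20 alternatives. The calls of H6pd, Ppp1r3b, G6pc3, Akr1b1, Khk, Bnip3l, Car9, Vhl and Ppargc1a were lost without at least 1 library, with highest adjusted p-values in those fits from 0.0507 for Ppargc1a to 0.202 for Akr1b1. Besides Akr1b1 and Khk, DESeq2 did not call H6pd, Ppp1r3b, Car9 and Vhl. Values in parentheses without a unit are log2 fold changes of si-DYRK1A against si-NC from the same edgeR fit.

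**Figure D5:**
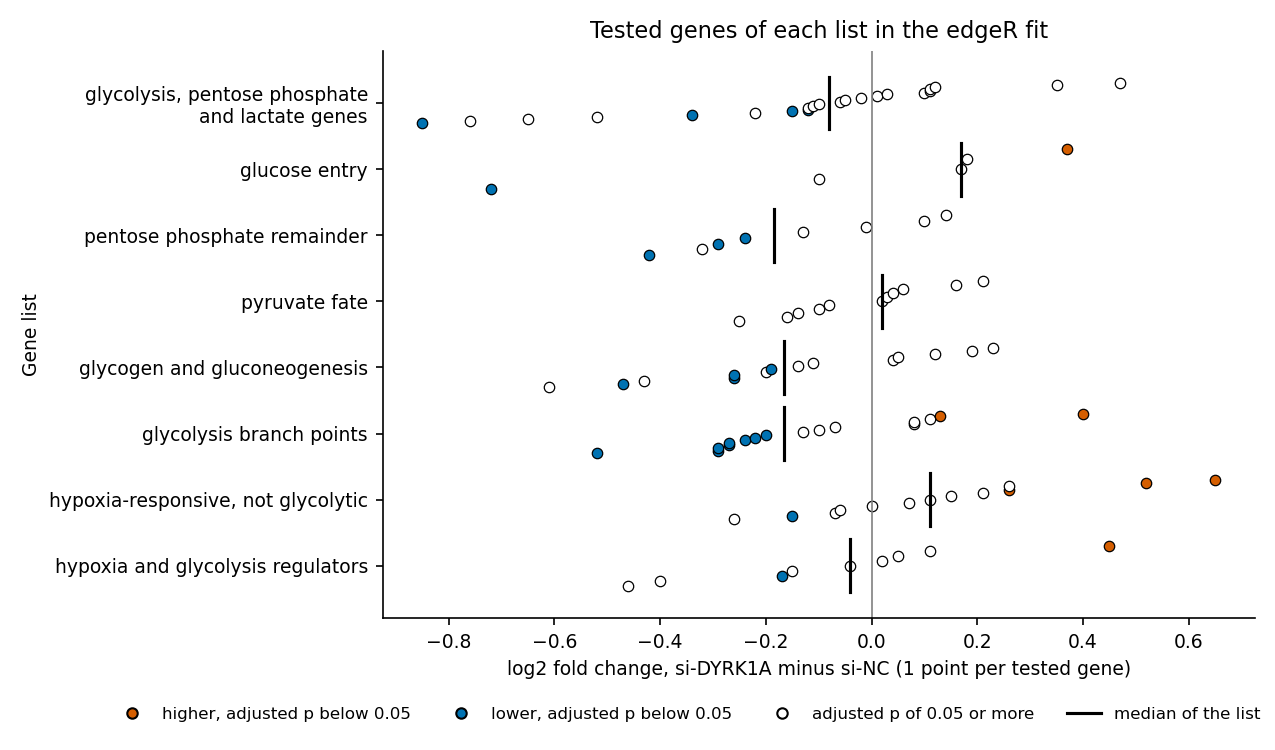
Log2 fold change of si-DYRK1A against si-NC, with 1 point per tested gene of each list, spread vertically for legibility, filled orange where called higher and blue where called lower at an adjusted p below 0.05, and a black line at the median. The glycolysis, pentose phosphate and lactate genes show blue points only, the pyruvate list shows no filled point, and the glucose entry list holds its blue point at -0.72 and its orange point at 0.37.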

How the data were processed

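RNA-seq of 3 si-NC and 3 si-DYRK1A libraries was analysed, grouped by the sample labels. Reads had been mapped to Rnor_6.0 with HISAT2, and the authors deposited raw counts and listed lengths per gene, as well as FPKM values, in which counts are divided by listed length and scaled per library. The submitters' processing notes also list Bowtie 0.12.2 and the build mm8 with no role. How reads were counted, with which annotation and strand setting, is not given in the sources used here, so overlapping genes and copies may share reads.

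Counts were tested with edgeR 4.0.16 (R 4.3.3; quasi-likelihood, TMM, robust, two-sided, filterByExpr with a minimum count of 10 and a total of 15) and Benjamini-Hochberg adjustment over 15513 features at 0.05. CPM values use TMM factors. In a further fit, a gene's counts were joined with unannotated transcripts on its strand covering at least 50% of the gene and no second annotated gene (GenomicRanges 1.54.1). Isozyme shares were compared by exact permutation tests. Promoter windows of 250 bases came from RefSeq on GRCr8, where 29 of 31 members matched.

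Members and lists were chosen with earlier results of these data known, and copies after their counts had been seen. All members were named, together with called genes of the other lists (up to 5 per direction by p) and each list's highest gene by FPKM. The result of 1 listed gene is not reported here. The code was tested on simulated data. Alternatives were DESeq2 1.42.0, limma 3.58.1 (voom, and log2(FPKM + 1) or log2(FPKM + 0.1) for FPKM over 0.5 in 3 libraries or more, or unfiltered), other scalings, filters and thresholds, a replicate block, and leaving out each library. P-values cover the spread between these libraries, which may be technical.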

Additional observations from a re-analysis of the deposited data

How the results depend on the processing

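Of 438 comparisons of 22 members under 20 alternatives, 410 kept their direction and their side of the threshold, 13 lost a call, 10 gained a call and 5 changed sign. Aldoc and Pdk2 passed the threshold under all 20 alternatives, with log2 fold changes of -0.92 to -0.80 and -0.38 to -0.31. Aldoa passed in 15 and Ldha in 12 of them, and the 3 limma fits on FPKM ended the call of Aldoa (adjusted p 0.0768 to 0.128). The sign changed for Pkm joined with the transcript over it (-0.19) or also with its copy (-0.20), for Tpi1 joined with its copy (0.65), and for Taldo1 with library size only (-0.02) or without si-NC replicate 3 (-0.01). The joined alternatives count other entries for these genes, and the cause of the other changes was not tested.

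The number of members called higher was 1 with limma-voom (Ldhb) against 0, and 0 to 1 with a library left out. The number called lower was 4, and it was 2 with log2(FPKM + 1), with or without a filter, 2 at an adjusted p below 0.01, 1 when a log2 fold change of 0.5 or more in size was required, and 2 to 6 with a library left out, with 2 without si-DYRK1A replicate 1 and 6 without si-NC replicate 3. Of the connected genes, 7 were called higher and 18 lower. With DESeq2 4 were higher, with log2(FPKM + 1) and no filter 2 were higher and 8 lower, at an adjusted p below 0.01 4 and 11, and with changes of 0.5 or more on the log2 scale 2 and 2. With a library left out, 3 to 8 were higher and 12 to 18 lower. The lowest, 3, was without si-DYRK1A replicate 3, and 12 was without si-DYRK1A replicate 2. In the limma fits with a filter, 12 were lower, against 18.

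Replicate numbers showed no visible pairing. Deviations of same-numbered libraries correlated at 0.0578, -0.0261 and -0.00409, and those of different-numbered libraries at -0.0553 to 0.0595. Such correlations cannot tell whether the libraries were prepared in pairs. With a replicate block, 0 members were called higher and 3 lower (Ldha was lost, adjusted p = 0.0833), and 6 and 16 of the connected genes. No scaling moved the median log2 fold change of all features by more than 0.02. The differences in the shares of Ldhb, Aldoc and Pdk2 moved by less than the larger group SD under every alternative run for them. That of Pdk2 went from -5.06 to -5.97 percentage points without si-NC replicate 3. The SD of this share was 1.61 in si-NC and 0.814 in si-DYRK1A. Joining the covering transcripts turned the difference in the share of Pfkl from 0.594 to -3.62 percentage points and took that of Pfkfb1 from 14.2 to 7.06 points, since Pfkp and most counts of Pfkfb2 enter only then. Depth limited the low members, with 95% intervals of -0.96 to -0.08 for Pfkm, -1.14 to -0.16 for Pfkfb4 and -0.41 to 1.34 for Pdk3.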
